A study of Mus musculus with 30 samples.

Results

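Salidroside is the glucoside of tyrosol, a phenylethanoid of Rhodiola and olive, and tyrosol is the aglycone that is left when its glucose is removed. The comparison sets the fecal bacteria of 6 mice given salidroside against those of 6 mice given tyrosol, so 12 of the 30 mice of the series were compared. All mice were female C57BL/6 mice with an age of 6 weeks in the labels, and the methods give the substrain as C57BL/6J. In the methods 6 weeks is the age at purchase, and stool was taken later, when the treatment ended. Both groups were fed the high-fructose diet that the study used to bring on metabolic syndrome and were gavaged with their compound, salidroside at 50 mg/kg and tyrosol at 23 mg/kg, a dose of tyrosol that the methods set by molar conversion from salidroside. The other 18 mice, used here only as background without a test, were control mice on normal feed, model mice on the high-fructose diet alone, and hydroxytyrosol mice given 26 mg/kg on that diet. Members were all mice that the labels put in the salidroside or tyrosol group, numbered 1 to 6 by their titles. The mice of a group had separate samples, but the sources used here give no cage, and mice that share a cage share fecal bacteria, so group and cage cannot be told apart.

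The 16S rRNA gene, which all bacteria carry and which differs between taxa, was amplified from stool DNA and sequenced. Each distinct sequence left after error removal is an amplicon sequence variant (ASV), and several ASVs can belong to 1 species. The share of a taxon is its counts in percent of all counts of that mouse in the filtered table. A share is relative: a higher share of one taxon and a lower amount of all others cannot be told apart. Glycosides such as salidroside are poorly absorbed as such, and β-glucosidases of gut bacteria such as Lactobacillus, Bifidobacterium, Bacteroides and Enterococcus can release the aglycone. The gut otherwise holds mainly obligate anaerobes, such as the fiber-fermenting Ruminococcaceae, with facultative anaerobes such as the Enterobacteriaceae as a smaller part.

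The libraries of both groups were deep, with 43979 to 91848 counts in the salidroside mice and 88185 to 106609 in the tyrosol mice. The salidroside libraries held fewer counts, with a mean difference of -19468 (exact two-sided permutation p = 0.0195, n = 6 and 6), and 71.1% of their merged reads were kept as non-chimeric against 79.6% (exact p = 0.0303). Salidroside mouse 2 had the lowest count, 43979, and the other salidroside mice had 74605 to 91848. Counts with no named genus took 17.8% ± 7.15 (SD) against 9.37% ± 3.45 (exact p = 0.0281). Their part in the results was not tested. Diversity, distances and the sharing of ASVs were read at 39768 counts in every mouse.

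The most abundant genera spread widely among the mice of each group. Acinetobacter, an aerobic genus common in soil and feed, held in the salidroside mice 71.1%, 59.5%, 10.1%, 0.0571%, 9.43% and 44.1% of counts. In the tyrosol mice it held 18.2%, 59.6%, 75.7%, 68.2%, 60.9% and 1.05%. It was the leading genus of 3 salidroside and 4 tyrosol mice, and both groups ran from about 1% or less to above 70%. The means of 32.4% ± 29.8 and 47.3% ± 30.2 (SD, n = 6) differed by -14.9 percentage points, with a 95% interval of -58.1 to 25.9 (exact permutation p = 0.372). The control, model and hydroxytyrosol means were 20.5% ± 25.0, 53.5% ± 30.3 and 11.2% ± 17.5.

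**Figure D1:**
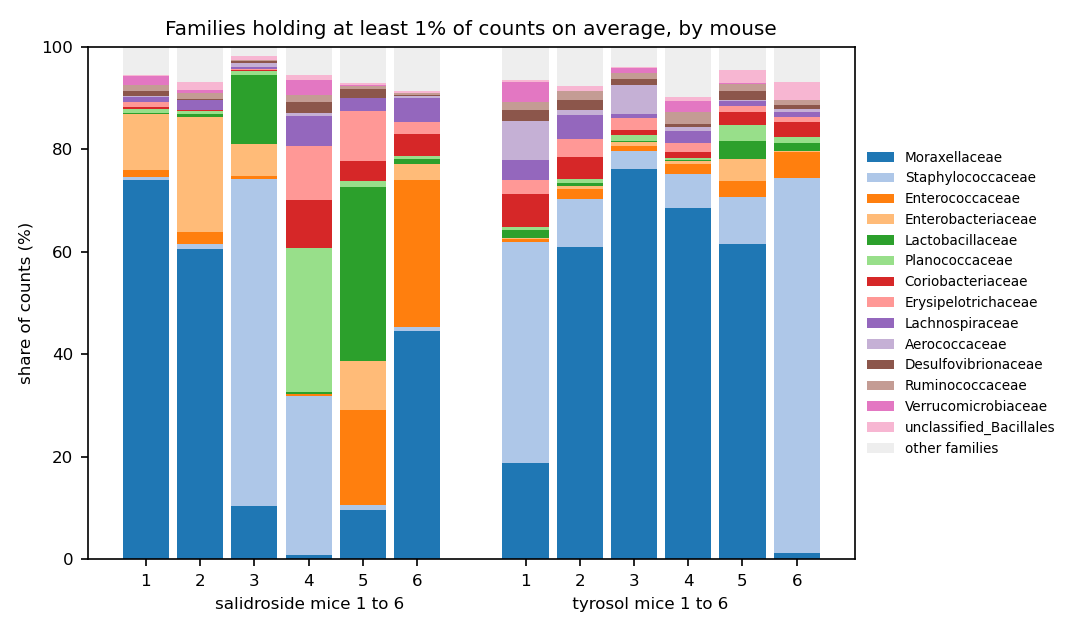
Stacked bars give the share of counts in percent, 1 bar for each of the 6 salidroside and 6 tyrosol mice, for families that hold at least 1% on average. Moraxellaceae, the family of Acinetobacter, spans 0.827% to 74.0% in the salidroside mice and 1.18% to 76.3% in the tyrosol mice.

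Where Acinetobacter was low, different genera led. Jeotgalicoccus and Staphylococcus, both of the Staphylococcaceae, held 40.9% and 16.6% in salidroside mouse 3, 23.2% and 6.37% in salidroside mouse 4, 30.2% and 10.3% in tyrosol mouse 1, and 24.9% and 40.6% in tyrosol mouse 6. Sporosarcina, an aerobic spore former of the Planococcaceae, held 28.0% in salidroside mouse 4, more than any other genus there, and at most 0.381% in the other 11 mice. Lactobacillus led salidroside mouse 5 with 33.8%. Salidroside mice 1, 2, 5 and 6 had 0.173% to 0.329% of Jeotgalicoccus, below every tyrosol mouse, of which the lowest had 1.83%, and the medians were 0.325% and 4.34%. The mean shares of Jeotgalicoccus were 10.9% and 11.4%, with an interval of the difference from -19.1 to 18.2 percentage points (exact permutation p = 0.965).

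No phylum passed the test, and the intervals were wide for the main phyla. Firmicutes averaged 49.8% ± 34.4 in the salidroside and 41.0% ± 30 in the tyrosol mice (difference 8.82 percentage points, interval -33.2 to 54.9, exact permutation p = 0.654). Proteobacteria averaged 43.9% ± 35.9 and 50.9% ± 31.2 (difference -6.97, interval -53.6 to 39.4). Both directions turned without Acinetobacter in the total, to -8.76 for Firmicutes and 16.2 for Proteobacteria. Bacteroidetes, at 1.59% and 1.47%, had an interval of -1.40 to 1.49 points, which is wide beside shares of this size. Their direction also turned without Acinetobacter in the total, to -0.651. Actinobacteria (3.35% and 4.52%) and Verrucomicrobia (0.969% and 1.2%) also overlapped. Of the 9 phyla tested, 0 had shares that did not overlap between the groups (0% of phyla) and 0 had an adjusted p under 0.05 by the exact test. At an unadjusted p under 0.05 there was 1, the counts not classified below Bacteria, named after its values were seen, at 0.209% against 0.448% (exact p = 0.0152, adjusted over 9 phyla 0.136). Without Acinetobacter in the total, that group of counts passed the adjusted threshold, and so it did without salidroside mouse 3.

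Christensenellaceae was the only family called between the groups by edgeR in the 12 mice. These are strict anaerobes of the Firmicutes, usually present at low share. Counts were 0, 0, 0, 3, 4 and 9 in the salidroside mice and 71, 199, 34, 47, 27 and 27 in the tyrosol mice. Every tyrosol mouse held more than any salidroside mouse, and salidroside mice 1, 2 and 3 had no count at all. As shares, the salidroside mice lay between 0% and 0.00981% and the tyrosol mice between 0.0279% and 0.189%, with means of 0.00297% ± 0.00390 and 0.0671% ± 0.0627. The edgeR quasi-likelihood test across 49 families gave a log2 fold change, salidroside over tyrosol, of -4.27 (SE 1.06, adjusted p = 0.0314). The family reached the filter of 10 counts in 4 mice through the tyrosol mice alone, so the test covered it only because that group was high. It was the 1 family called, or 2.04% of those tested, and the 1 family with no overlap between groups, again 2.04%, while 8 families had an unadjusted p under 0.05, DESeq2 called 4 (8.16%) and limma on centred log-ratios 1 (2.04%). With no filter, with at least 50 counts required, with all 30 mice in the fit or with the replicate block, edgeR called 0 families. The exact permutation test of the shares gave the smallest p it can give, 0.00216, which adjusted over the families was 0.106. The edgeR call was lost when salidroside mouse 1, 2, 3, 4 or 5 or tyrosol mouse 1 or 2 was left out (adjusted p 0.0517 to 0.109), with the log2 fold change between -5.21 and -3.98 whichever of the 12 mice was left out.

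Among the background groups, Christensenellaceae had no count in any of the 6 control mice, averaged 0.00752% ± 0.00929 in the model mice and 0.0285% ± 0.00919 in the hydroxytyrosol mice, which all had 19 to 38 counts. Within the family, the genus Christensenella had 39, 88, 31, 47, 14 and 27 counts in the tyrosol mice, 5 counts in salidroside mouse 6 and none in the other salidroside mice. No control and no model mouse had a count of it, and 5 of the 6 hydroxytyrosol mice did. Its log2 fold change was -5.12 (SE 1.30, edgeR adjusted p = 0.0986), so it was not called among genera. Its counts came mainly from ASV_15743, found in 5 tyrosol mice and 1 salidroside mouse, and ASV_12488, found in 5 tyrosol and 0 salidroside mice. At even depth, the family had 0, 0, 0, 1, 1 and 2 ASVs in the salidroside mice and 5, 5, 2, 2, 3 and 2 in the tyrosol mice (exact permutation p = 0.00866, one of 14 taxa whose ASVs were counted this way after their values were seen), which restates the low counts and is no independent support.

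**Figure D2:**
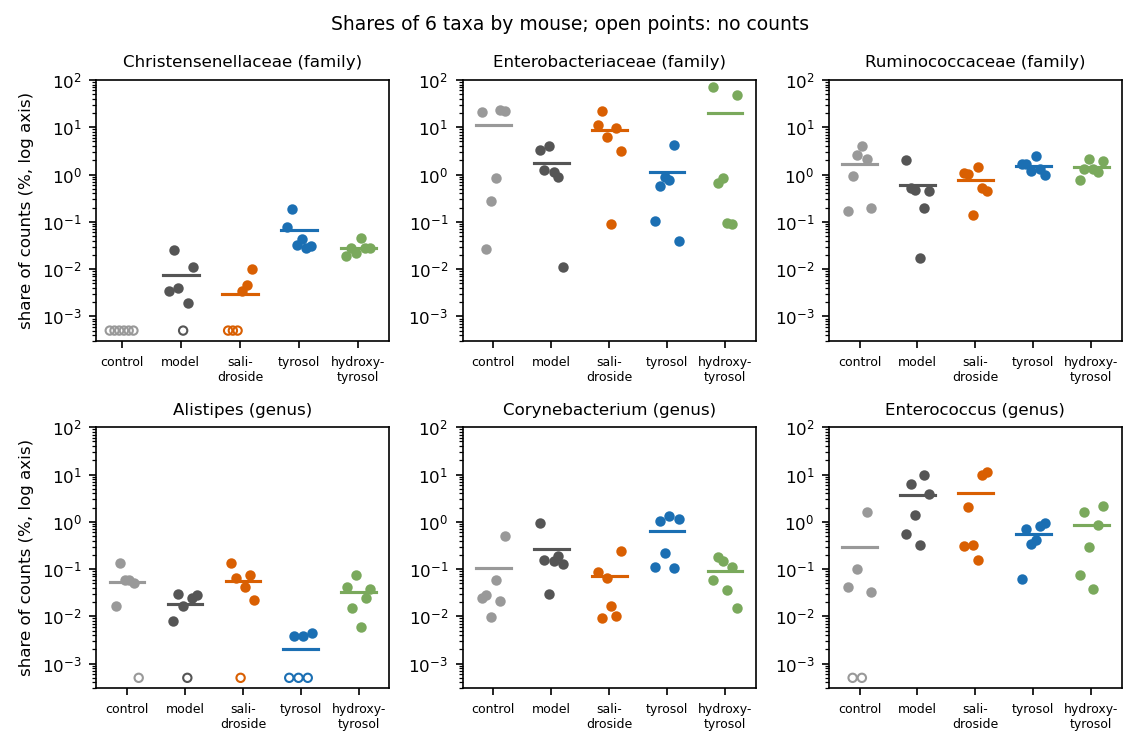
Each point is the share of counts of 1 mouse in percent on a log axis, by group, with the group mean as a line and open points at the bottom for mice with no count. For Christensenellaceae the tyrosol points, 0.0279% to 0.189%, lie above all salidroside points, of which the highest is 0.00981%.

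Among the other families, those with higher shares in the salidroside mice included Enterobacteriaceae, facultative anaerobes that hold Escherichia and Shigella. Their shares were 11%, 22.6%, 6.27%, 0.0886%, 9.58% and 3.15% in the salidroside mice. In the tyrosol mice they were 0.102%, 0.581%, 0.870%, 0.770%, 4.28% and 0.0397%. Salidroside mouse 4 was low and tyrosol mouse 5 high, and in 30 of 36 pairs the salidroside mouse had more. The means of 8.77% ± 7.87 and 1.11% ± 1.59 differed by 7.67 percentage points (interval 1.18 to 15.6, exact permutation p = 0.0260, adjusted 0.255), and the log2 fold change was 3.04 (SE 1.26, edgeR adjusted p = 0.205). The family therefore did not pass the adjusted test, which DESeq2 put at an adjusted p of 0.0243. In the background groups it averaged 11.3% ± 12 in control, 1.77% ± 1.56 in model and 20% ± 31.2 in hydroxytyrosol mice.

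The Enterobacteriaceae counts came from different genera in different mice. Counts of the family with no named genus held 8.10%, 16.4% and 6.24% in salidroside mice 1, 2 and 3, at most 0.214% in salidroside mice 4 to 6, and at most 0.244% in the tyrosol mice. Shigella held 1.88%, 4.31%, 0.0305%, 0.00233%, 9.40% and 2.61% in the salidroside mice, of which mice 3 and 4 lay below every tyrosol mouse, against 3.86% in tyrosol mouse 5 and at most 0.442% in the other tyrosol mice. The counts with no named genus had a log2 fold change of 5.71 (SE 1.55, edgeR adjusted p = 0.0986), and Shigella averaged 3.04% ± 3.52 against 0.824% ± 1.5 (interval of the difference -0.832 to 5.73, exact permutation p = 0.171).

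Ruminococcaceae, obligate anaerobes of the Firmicutes that break down plant fiber, had the higher shares in the tyrosol mice. The tyrosol mice held 1.69%, 1.67%, 1.2%, 2.43%, 1.29% and 0.960%, and the salidroside mice 1.07%, 1.0%, 0.142%, 1.46%, 0.512% and 0.440%. Salidroside mice 1, 2 and 4 lay within the range of the tyrosol mice and the other 3 below it. The means were 0.772% ± 0.489 and 1.54% ± 0.519, a difference of -0.769 points (interval -1.43 to -0.130, exact permutation p = 0.0260, adjusted 0.255), while the edgeR log2 fold change was -0.83 (SE 0.71, adjusted p = 0.517). Most of it was Oscillospira, a genus linked to butyrate formation, at 0.551% ± 0.434 and 1.22% ± 0.406 (exact permutation p = 0.0238, adjusted 0.370). The model mice averaged 0.609% ± 0.712 of Ruminococcaceae, the hydroxytyrosol mice 1.43% ± 0.506 and the control mice 1.68% ± 1.53.

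Aerococcaceae and Corynebacteriaceae, Gram-positive families with members that live on skin, had the higher shares in the tyrosol mice as well. Aerococcus held 7.51%, 0.856%, 5.00%, 0.859%, 0.0176% and 0.366% in the tyrosol mice against 0.119%, 0%, 0.383%, 0.156%, 0.0158% and 0.287% in the salidroside mice. Tyrosol mice 1 to 4 lay above every salidroside mouse, and tyrosol mice 5 and 6 did not. Corynebacterium held 0.113%, 1.02%, 0.215%, 1.30%, 0.106% and 1.15% in the tyrosol mice and 0.00910% to 0.237% in the salidroside mice. The log2 fold change was -2.82 (SE 1.14) for Aerococcaceae and -3.0 (SE 0.99) for Corynebacteriaceae, with edgeR adjusted p = 0.205 and 0.160. DESeq2 called Corynebacteriaceae, with an adjusted p of 0.0378. Aerococcus had fewer ASVs at even depth, 2.83 ± 2.40 per salidroside mouse against 11 ± 6.45 (exact permutation p = 0.0238, of the same 14 taxa). That number goes with its lower counts and is no independent support.

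Rikenellaceae and its genus Alistipes, bile-tolerant members of the Bacteroidetes, had the higher shares in the salidroside mice. Alistipes had 102, 29, 0, 35, 68 and 20 counts in the salidroside mice and 0, 4, 0, 4, 0 and 4 in the tyrosol mice. Salidroside mouse 3 had none, and the other 5 lay above every tyrosol mouse. Alistipes reached the count filter through the salidroside mice alone, so its fold change is no independent support for a difference. The log2 fold change was 4.79 for Alistipes (SE 1.42, edgeR adjusted p = 0.123) and 2.73 for Rikenellaceae (SE 1.08, edgeR adjusted p = 0.205), which DESeq2 called with an adjusted p of 0.0412. The control, model and hydroxytyrosol means of Alistipes, 0.0534%, 0.0178% and 0.0332%, all lay above the tyrosol mean of 0.00202%.

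**Figure D3:**
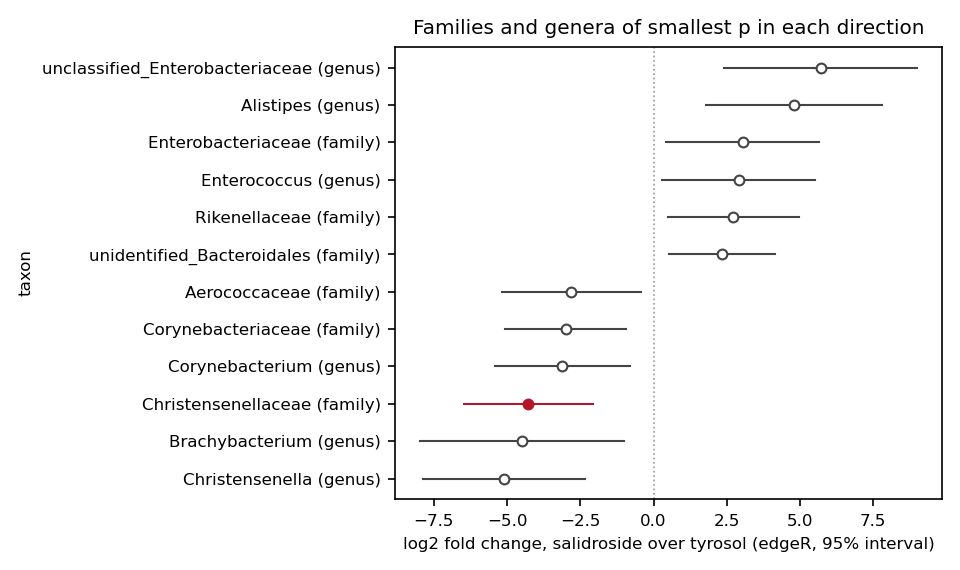
Points give the edgeR log2 fold change, salidroside over tyrosol, with its 95% interval for the 3 families and 3 genera of smallest p in each direction. The filled point, Christensenellaceae at -4.27, is the only one of these 12 with an adjusted p under 0.05.

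Among the 92 genera, 0 were called by edgeR (0% of genera; 1 without salidroside mouse 4, the Enterobacteriaceae with no named genus, and 1 without salidroside mouse 6, Christensenella), 9 had an unadjusted p under 0.05, DESeq2 called 5 (5.43%, 4 of them higher in the salidroside mice) and limma on centred log-ratios called 1 (1.09%), Christensenella. Christensenella and Brachybacterium reached the count filter through the tyrosol mice alone and Alistipes through the salidroside mice alone, so their calls and lack of overlap are no independent support for a difference. Shares of 1 genus, also Christensenella, did not overlap between the groups, which is 1.09% of genera. The remaining genera of smallest p were Corynebacterium (-3.11, SE 1.09), Brachybacterium (-4.49, SE 1.64; 1 salidroside and 4 tyrosol mice with counts) and Enterococcus (2.92, SE 1.23), with edgeR adjusted p = 0.268, 0.270 and 0.407. Enterococcus, a lactic acid genus, held 9.81% and 11.3% in salidroside mice 5 and 6, while the other 4 salidroside mice had 0.153% to 2.04% and the tyrosol mice 0.0609% to 0.932%. By the exact test 9 families and 9 genera had an unadjusted p under 0.05 and 0 an adjusted one. Of those not yet given, Micrococcaceae with its genus Arthrobacter, named after their values were seen, had 0.204% against 0.728%. Bacteroidales with no named family, among the families of smallest p, had 0.168% against 0.0342% (log2 fold change 2.35, SE 0.87, edgeR adjusted p = 0.205).

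Several genera that the study names had group means that differed by less than the spread between mice. Collinsella, a member of the Coriobacteriaceae that ferments sugars, held 0.315%, 0.0523%, 0.253%, 9.40%, 3.45% and 4.15% in the salidroside mice and 6.51%, 4.07%, 0.891%, 1.22%, 2.52% and 2.98% in the tyrosol mice. Its means of 2.94% and 3.03% differed by -0.0950 points (interval -3.58 to 3.78, exact permutation p = 0.957), and it was present in all 12 mice and in all 6 hydroxytyrosol mice, with a mean of 2.40% there, while its mean was 0.000598% in control and 0.000996% in model mice. Akkermansia, a mucin degrader, averaged 0.969% and 1.2% (interval -1.97 to 1.5) and was listed at 0 in all control mice. Ruminococcus averaged 0.0316% and 0.0245%, [Ruminococcus] 0.491% and 1.08%, and Kurthia 0.111% and 0.0636%, none with an unadjusted exact p under 0.05. Fusobacterium had 0 counts in all 12 mice.

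The remaining families of at least 1% gave intervals that held 0. Lactobacillaceae averaged 8.24% ± 13.6 in the salidroside mice, through 13.6% in mouse 3 and 33.9% in mouse 5, and 1.31% ± 1.27 in the tyrosol mice (interval -1.66 to 17.0). Enterococcaceae averaged 8.65% ± 12.1 and 2.25% ± 1.69 (interval -2.32 to 17.6), with 18.5% and 28.7% in salidroside mice 5 and 6. Planococcaceae, Erysipelotrichaceae and Lachnospiraceae averaged 5.31%, 3.96% and 2.79% in the salidroside mice against 1.17%, 2.08% and 2.26%. The direction of each of them turned under some alternative, as given at the end. Coriobacteriaceae and Desulfovibrionaceae averaged 3.06% and 0.940% against 3.09% and 1.39%. The genera Allobaculum (1.62% and 0.545%), Clostridium of the Erysipelotrichaceae (1.99% and 1.36%) and Salinicoccus (0.853% and 1.26%) each drew their salidroside mean mainly from 1 mouse. Counts with no named genus averaged 1.73% and 0.593% in the Lachnospiraceae and 4.63% and 1.69% in the Enterococcaceae, and those of Bacillales with no named family 0.733% and 1.38%.

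Below the genus, single ASVs were found in the mice of one group and in few or none of the other, while the totals of their genus or family overlapped. The ASVs of the taxa described next were chosen after their values were seen, except those given as of smallest p. Desulfovibrionaceae are sulfate reducers that form hydrogen sulfide. Their counts with no named genus made up 0.173% to 1.90% of the salidroside and 0.45% to 1.83% of the tyrosol mice (means 0.858% ± 0.733 and 1.25% ± 0.572, exact permutation p = 0.307), and the most abundant ASV, ASV_60742, was found in all 12. ASV_43634 had 111, 56, 82, 246, 30 and 59 counts in the salidroside mice and 0 in every tyrosol mouse. It also had 0 counts in all 18 control, model and hydroxytyrosol mice, and it made up 2.16% to 46.7% of these counts in the salidroside mice. ASV_58700 had 109, 346, 213, 0, 260 and 169 counts in the tyrosol mice and 0 in every salidroside mouse, and it was found in 2 model, 4 hydroxytyrosol and 0 control mice. ASV_4722 and ASV_87514 were found in those same 5 tyrosol mice, in 0 salidroside mice and in 2 model mice each.

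ASV_43634, ASV_58700, ASV_27816, ASV_5260 and ASV_70946 were among the ASVs of smallest p. Against a floor of 3 counts per mouse, ASV_43634 was at least 41.0-fold higher in the salidroside mice and ASV_58700 at least 45.7-fold lower. The edgeR adjusted p over 394 ASVs was 0.0606 for both. DESeq2 called both, limma on centred log-ratios called ASV_43634, and with at least 50 counts required in at least 4 mice edgeR called both. These 5 ASVs reached the filter of 10 counts in 4 mice through the group where they were high alone, as did the ASVs that reached that of 50 counts, so their calls are no independent support for a difference. Without salidroside mouse 3, edgeR called ASV_43634 and ASV_70946 and no other ASV. The dominant ASV_60742 made up 43.4% to 80.6% of the Desulfovibrionaceae counts with no named genus in the salidroside mice and 69.2% to 89.8% in the tyrosol mice.

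Pseudoramibacter_Eubacterium, a genus of obligate anaerobes in the Eubacteriaceae, also had ASVs of this kind. ASV_25041 had 46, 37, 10, 119, 174 and 43 counts in the salidroside mice, 30 in tyrosol mouse 1 and 0 in the other tyrosol mice. ASV_27816 had 69, 50, 24, 108, 19 and 27 counts in the tyrosol mice and 0 in every salidroside mouse. In tyrosol mice 2 to 6 ASV_27816 was 100% of the genus, and in salidroside mice 2 and 3 ASV_25041 was. The genus as a whole averaged 0.146% ± 0.105 and 0.0552% ± 0.0403 (interval of the difference -0.0197 to 0.198 points, exact permutation p = 0.0866). ASV_27816 was at least 12.3-fold lower in the salidroside mice (edgeR adjusted p = 0.0701) and was found in 3 hydroxytyrosol mice and in no control or model mouse.

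ASV_5260, assigned to Blautia producta, an acetate-forming anaerobe of the Lachnospiraceae, had 177, 80, 10, 51, 20 and 67 counts in the tyrosol mice and 0 in the salidroside, control and model mice. It was at least 17.6-fold lower in the salidroside mice (edgeR adjusted p = 0.0606), or 11.4-fold without tyrosol mouse 1, and 2 hydroxytyrosol mice had it. Blautia as a genus averaged 0.103% ± 0.0893 and 0.216% ± 0.130 (exact permutation p = 0.119). In the other direction ASV_70946, assigned to Alistipes finegoldii, had 80, 20, 0, 31, 66 and 12 counts in the salidroside mice and 0 in every tyrosol mouse. It was at least 15.1-fold higher (edgeR adjusted p = 0.0606), and it was found in 5 model, 5 hydroxytyrosol and 1 control mice.

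**Figure D4:**
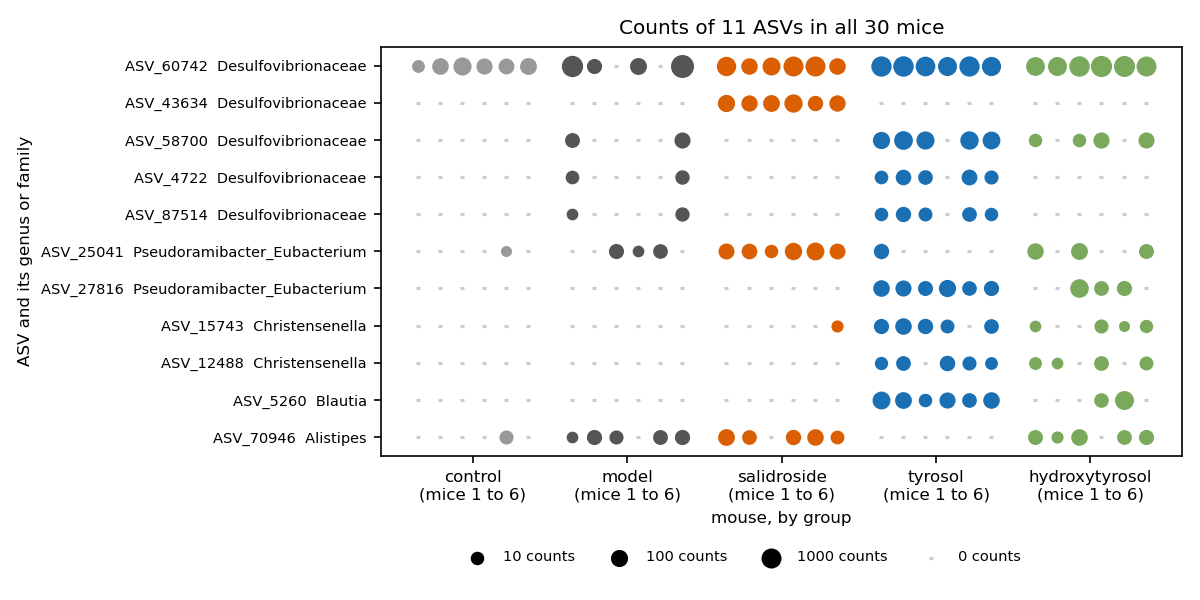
Rows are 11 ASVs and columns the 30 mice by group. The size of a point grows with the log of its counts, as the key shows, and grey dashes mark 0 counts. ASV_43634 appears in the 6 salidroside mice and in 0 of the other 24, and ASV_27816 and ASV_5260 in all 6 tyrosol mice and in 0 salidroside mice.

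Over all 394 ASVs tested, edgeR called 0 (0% of ASVs), 28 had an unadjusted p under 0.05, DESeq2 called 5 (1.27%) and limma on centred log-ratios 3 (0.761%). Shares of 3 ASVs did not overlap between the groups, ASV_43634, ASV_27816 and ASV_5260, which is 0.761% of ASVs. The remaining ASV of smallest p, ASV_8872 of Sporosarcina, had 4032 counts in salidroside mouse 4 and at most 225 in the other 11 mice (edgeR adjusted p = 0.275). Of the 15 most abundant ASVs, ASV_61812 did not reach the count filter and was not tested, and edgeR called 0 of the others. The most abundant, ASV_14106 of Acinetobacter lwoffii, averaged 14.6% ± 15.8 and 23.8% ± 15.6, and ASV_11531 of Collinsella stercoris, which made up 99.3% of the Collinsella counts, 2.92% ± 3.61 and 3.0% ± 2.03. ASV_75238, the leading ASV of Aerococcus, averaged 0.116% ± 0.102 and 2.16% ± 2.79.

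At even depth 87 ASVs were found in all 6 tyrosol mice and 27 in all 6 salidroside mice, of which 19 were common to both, or 21.8% of the tyrosol and 70.4% of the salidroside set. Counted over at least 1 mouse, the groups had nearly as many ASVs, 2848 in the salidroside and 2744 in the tyrosol mice, with 1095 in both. Of the 4497 ASVs with counts in the 12 mice at even depth, 14 were in all 6 tyrosol mice and in at most 2 salidroside mice. Among them were ASVs of Staphylococcus, Jeotgalicoccus, Salinicoccus and Desulfovibrio. In the other direction 2 ASVs, ASV_43634 and ASV_25041, were in all 6 salidroside mice and at most 2 tyrosol mice. Presence is not amount. The mean salidroside and tyrosol shares were 0.152% and 0.151% for ASV_15239 of Salinicoccus and 0.748% and 0.921% for ASV_30448 of Jeotgalicoccus. They were 0.658% and 1.13% for ASV_73934 of Staphylococcus and 0.0102% and 0.0774% for ASV_67052 of Desulfovibrio. In the deeper filtered table some of the 14 had counts in further salidroside mice, such as ASV_65703 of Psychrobacter, with 64, 1, 4, 0, 1 and 3 counts. These counts of ASVs describe the 12 mice and were not tested.

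None of the 7 indices of diversity within a mouse passed the test. The Shannon index in base 2 was 5.27, 6.00, 4.23, 4.81, 5.66 and 6.19 in the salidroside mice and 5.02, 5.74, 4.30, 4.90, 5.87 and 5.02 in the tyrosol mice. The 2 ranges lay almost on each other, and the mean difference was 0.218 (interval -0.669 to 1.08, exact permutation p = 0.565). Observed ASVs were 950, 908, 494, 556, 538 and 834 against 661, 983, 686, 870, 915 and 705. Salidroside mice 3, 4 and 5 lay below every tyrosol mouse. The means of 713 ± 206 and 803 ± 136 differed by -90.0 (interval -323 to 144, exact permutation p = 0.390). Chao1, which adds an estimate of unseen ASVs, was 847 ± 231 and 1028 ± 173 (interval -441 to 90.2, exact permutation p = 0.152), and ACE, a similar estimate, 884 ± 235 and 1058 ± 183. Simpson's index was 0.907 and 0.872, Pielou evenness 0.568 and 0.533, and Good coverage 0.9955 and 0.9941, whose exact p of 0.0714 was the lowest of the 7 (adjusted 0.398). Chao1, ACE and Good coverage rest on ASVs with few counts, and the authors had removed singletons, which limits them as estimates of unseen ASVs. For comparison, control mice had a Shannon index of 6.25 ± 0.461 and 1103 ± 194 observed ASVs, model mice 5.17 ± 0.620 and 788 ± 175, and hydroxytyrosol mice 4.43 ± 0.798 and 586 ± 158.

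Between mice, Bray-Curtis distance runs from 0 for the same composition to 1 for no shared counts. The mean distance was 0.787 within the salidroside group, 0.580 within the tyrosol group and 0.693 between them. All 6 tyrosol mice were on average nearer to their own group than to the salidroside mice, and 1 of the 6 salidroside mice was. The nearest mouse of salidroside mice 1, 2, 3 and 4 was a tyrosol mouse, and salidroside mice 5 and 6 were nearest to each other. The groups as a whole did not pass the exact permutation test (share of the squared distances between the groups, R2 = 0.0958, p = 0.310).

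The distance to the own group's centroid was 0.451, 0.499, 0.541, 0.599, 0.541 and 0.446 in the salidroside mice and 0.427, 0.266, 0.365, 0.311, 0.308 and 0.595 in the tyrosol mice. Tyrosol mouse 6 lay among the salidroside values, and the other 5 tyrosol mice lay below all of them. The mean difference of 0.134 (interval 0.0133 to 0.240, exact permutation p = 0.0390) was lost when salidroside mouse 1, 2, 3, 4 or 5 or tyrosol mouse 2 or 5 was left out (difference 0.0989 to 0.208, exact permutation p 0.0130 to 0.152 over the 12 mice left out in turn) and with counts summed per genus (exact permutation p = 0.0801). This difference also did not pass under the replicate block (exact permutation p = 0.0938). With Acinetobacter left out, the distances were 0.508 to 0.586 in the salidroside mice and 0.331 to 0.439 in the tyrosol mice, without overlap (difference 0.162, interval 0.110 to 0.216, exact permutation p = 0.00216, the smallest it can give), and R2 was 0.138 (exact permutation p = 0.0758). This was the most extreme of several ways of taking the distance, with no adjustment over them. Centroids stayed those of the observed groups while labels were permuted, so these p-values take the distances as given.

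**Figure D5:**
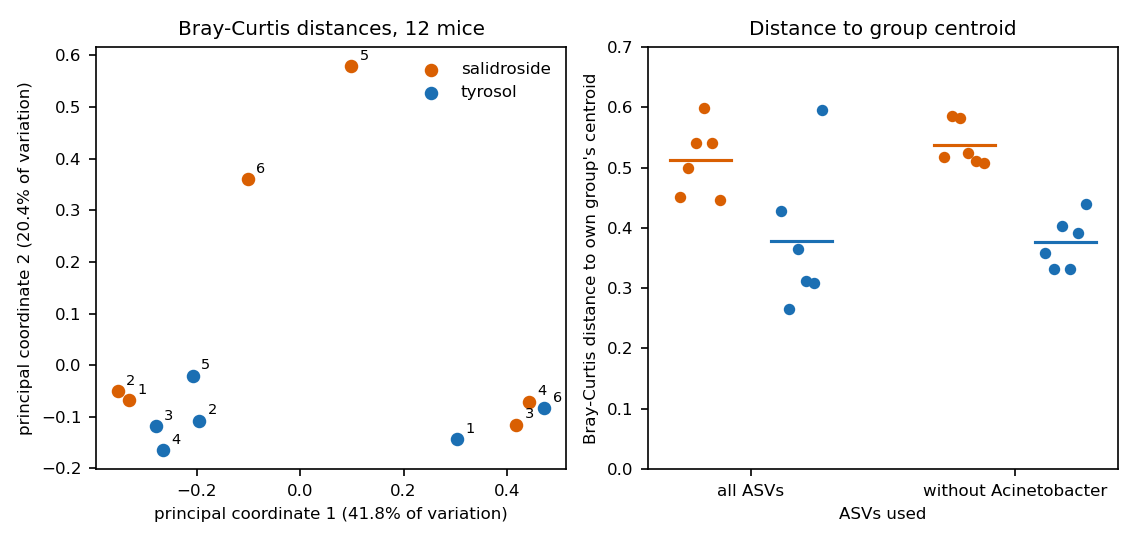
The left panel places the 12 mice on the first principal coordinates of their Bray-Curtis distances, which hold 41.8% and 20.4% of the variation, with mouse numbers beside the points. The right panel gives each mouse's distance to its group's centroid, with means as lines: 0.513 and 0.379 with all ASVs, and 0.538 and 0.376 without Acinetobacter.

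Lists of genera by way of life were described by count, median and summed share, with an interval of the difference for the last list. Of 24 obligate anaerobes of the gut tested, edgeR called 0 (DESeq2 called Alistipes and Christensenella, and limma on centred log-ratios Christensenella, both genera that reached the filter through 1 group alone), with 12 fold changes above 0 and 12 below, and their summed share was 10.2% ± 9.47 and 10.4% ± 5.53. Of 10 obligate aerobes edgeR called 0 (38.2% ± 26.2 and 49.2% ± 30.8), and of 15 facultative anaerobes edgeR called 0 (31.9% ± 27.0 and 29.0% ± 25.8), while DESeq2 called Enterococcus and Lactobacillus. These DESeq2 calls, 2 in each of those lists, stand beside 5.43% of all genera called by it. Of 6 butyrate producers edgeR called 0 (1.19% ± 0.886 and 1.60% ± 0.623). Their median log2 fold changes were 0.08, -0.44, 0.23 and 0.33, beside -0.04 over all 92 genera. A change of scaling moved that overall median to 0.20 with TMMwsp and -0.17 with no TMM, so fold changes of this size had no settled direction.

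The genera with cultured members known to hydrolyse plant β-glucosides were listed because the compounds differ by a glucose. This list was written with earlier results of these data known, so its values are no independent support. Bifidobacterium did not reach the count filter. Lactobacillus, Enterococcus and Bacteroides had log2 fold changes of 3.0 (SE 1.45), 2.92 (SE 1.23) and 0.94 (SE 1.0), with edgeR adjusted p = 0.429, 0.407 and 0.688, so edgeR called 0 of 3. DESeq2 called Lactobacillus and Enterococcus, both higher in the salidroside mice, beside 5.43% of all genera, and limma on centred log-ratios called 0. The list held 0.646%, 3.97%, 13.9%, 0.585%, 43.8% and 12.6% of counts in the salidroside mice and 1.79%, 1.62%, 0.638%, 1.11%, 4.40% and 2.67% in the tyrosol mice. Salidroside mice 3, 5 and 6 lay above every tyrosol mouse, salidroside mice 1 and 2 within the tyrosol range and salidroside mouse 4 below it. The means of 12.6% ± 16.3 and 2.04% ± 1.34 differed by 10.5 points, with an interval from -0.974 to 26.5 that holds 0. Control, model and hydroxytyrosol mice averaged 15.8% ± 12.3, 5.48% ± 4.17 and 4.68% ± 2.54.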

How the data were processed

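Stool DNA of 30 mice was amplified and sequenced by the authors, who filtered, denoised and merged the reads, removed chimeras and singletons and assigned taxa, per the file headers (the methods describe clustering, but the tables hold ASVs). The deposited values are raw counts per ASV in 3 tables (unfiltered, filtered, and subsampled by the authors to an even depth of 39768), with a log of read counts per step. Per the labels' processing notes cutadapt was used. The version of the taxonomy is not given in the sources used here, which differ on the length of treatment. The members, lists and tests were chosen with earlier results of these data known.

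Counts were summed per phylum, family and genus (a genus name found in several families carries its family) from the filtered table. A taxon was tested if 4 or more mice of these 2 groups had 10 or more counts of it, which left 9 phyla, 49 families, 92 genera and 394 ASVs, the last with 88.4% of counts. They were tested with edgeR 4.0.16 (quasi-likelihood, TMM) in R 4.3.3, Benjamini-Hochberg adjusted and called at an adjusted p under 0.05, with DESeq2 1.42.0 and limma 3.58.1 as alternatives. Shares, 7 diversity indices and distances were tested by two-sided exact permutation over all 924 splits of the 12 mice (smallest p 0.00216), with 95% intervals by inverting the test. Limits for 0 counts (3 counts) and depth cover counting error only. The steps were tested on simulated data. Of 30 within-group pairs of mice 0 had identical counts, and a group's p-values measure the spread between its 6 mice. The rule for naming took 5 phyla, families and genera of at least 1% mean share, 14 genera of the study, the called taxa or the 3 of smallest p per direction, and the 15 most abundant ASVs, of which the text gives 4; others are marked as chosen after their values were seen.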

Additional observations from a re-analysis of the deposited data

Results flagged for a closer look

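Of 98 sets of 6 mice whose values were screened for a mouse far from the others (Dixon's ratio above its 95% critical value), 14 had one, and chance flags about 1 in 20. That rate holds for independent, normally spread values. Shares are skewed and a family shares counts with its genus, so the rates cannot be compared. Salidroside mouse 4 stood apart in 4 sets: Planococcaceae at 28.1%, its genus Sporosarcina at 28.0%, Clostridium of the Erysipelotrichaceae at 9.42% and [Ruminococcus] at 1.60%. Salidroside mouse 3 stood apart with 4.23% of Salinicoccus and 16.6% of Staphylococcus, and tyrosol mouse 6 with 4.92% and 40.6% of the same genera. Tyrosol mouse 5 stood apart with 4.28% of Enterobacteriaceae, 3.86% of Shigella and 3.07% of Planococcaceae. The remaining values were Allobaculum at 9.55% in salidroside mouse 5 and 2.32% in tyrosol mouse 2, and Kurthia at 0.597% in salidroside mouse 6. No diversity index and no distance to a centroid was among them.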

How the results depend on the processing

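The number of families called, 1 in the main analysis, was 4 with DESeq2 and 0 with no count filter, with at least 50 counts, with all 30 mice in the fit and with the replicate block, and 0 to 1 when a mouse was left out. Genera called, 0 in the main analysis, were 5 with DESeq2, 1 with centred log-ratios and 5 with no filter (0 to 1 with a mouse left out), and ASVs called, also 0, were 5, 3 and 1, with 3 at a filter of 50 counts (0 to 2). Phyla past the adjusted threshold numbered 1 without Acinetobacter in the total and 0 to 1 with a mouse left out. Chao1 at genus level (-21.5, exact permutation p = 0.0455) and Good coverage at genus level (0.000176, exact permutation p = 0.0130) passed the threshold, as Good coverage did without salidroside mouse 1 (0.00116 to 0.00191 over the mice left out). The difference in distance to the centroid, 0.134, no longer passed under the replicate block (exact p = 0.0938) or at genus level (0.136), and was 0.0989 to 0.208 with a mouse left out. The cause of these changes was not tested.

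Replicate numbers follow the order of the titles, and the descriptions of some salidroside mice carry other numbers. The replicate block, which pairs mice of the same number, therefore rests on no known pairing and cannot show one. Of the 6 pairs, 2 deviated together (correlation over 0.1, range -0.179 to 0.461). The replicate block changed 2 results, those above, and with it 0 genera, ASVs and phyla were called. Of 67 values of single taxa, 21 changed sign under some alternative, none with an adjusted p under 0.05. On log10 shares, differences were -0.205 for Erysipelotrichaceae, -0.0596 for Allobaculum, -0.612 for Clostridium of the Erysipelotrichaceae, -0.172 for Ruminococcus, -0.00872 for Sporosarcina and -0.0301 for Enterococcaceae with no named genus; in mean ranks the same 6 were -0.667, -0.167, -2, -2, -0.667 and -1.33. Without Acinetobacter in the total, they were -8.76 percentage points for Firmicutes, 16.2 for Proteobacteria, -0.651 for Bacteroidetes, -0.329 for Erysipelotrichaceae, -0.622 for Lachnospiraceae, 0.814 for Moraxellaceae, -0.860 for Clostridium of the Erysipelotrichaceae and -0.00765 for Kurthia. With a mouse left out, the ranges crossed 0 for Proteobacteria (-16.7 to 1.06), Bacteroidetes (-0.163 to 0.585), Verrucomicrobia with its family and Akkermansia (-0.620 to 0.283), Coriobacteriaceae (-1.31 to 0.661), Lachnospiraceae (-0.0896 to 1.05), Planococcaceae (-0.407 to 5.10), Staphylococcaceae (-17.3 to 2.05), Allobaculum (-0.512 to 1.43), Clostridium of the Erysipelotrichaceae (-0.855 to 1.03), Collinsella (-1.39 to 0.601), Jeotgalicoccus (-6.55 to 3.21), Salinicoccus (-1.08 to 0.321), Ruminococcus (-0.00752 to 0.0129) and Kurthia (-0.0503 to 0.0827). Taxa named here with under 10 counts in most mice of a group, such as Christensenellaceae in the salidroside mice, rest on few reads.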
